A study of Bos taurus with 43 samples.

Results

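The calgranulins S100A8 and S100A9 are small calcium-binding proteins that pair with each other to form calprotectin. Neutrophils hold them in very large amounts, monocytes hold them too, and stratified or stressed epithelia can make them. Calprotectin is released at mucosal surfaces, where it withholds metal ions from microbes and acts as a danger signal to innate immune cells. In the uterus of the cow, neutrophils enter the lumen in endometritis and can also be present in animals without clinical signs, and luminal cytology is the usual way to count them.

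The 10 cows with the most and the 10 cows with the least S100A9 and S100A8 message in luminal brushings were compared here, out of 43 cows in all. CPM (counts scaled to a library total of 1000000) was computed for ENSBTAG00000006505, given as S100A9, and ENSBTAG00000012640, given as S100A8. The calgranulin score of a cow was the mean of the 2 values of log2(CPM + 1). The cows were chosen by these 2 measured levels, so the classes are groups made from the libraries and not groups of the study, and the 2 genes that made them were left out of every test across genes.

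All 43 animals were multiparous Angus x Brahman cows whose estrus was synchronized with a progesterone (P4) device, GnRH and PGF2alpha analogues, and all were brushed on day 4 after the last GnRH dose. Each later received an in vitro-produced embryo on day 7, with pregnancy scored around day 30. The cows were handled in 2 rounds (blocks), and P4 in blood on day 4 is given per cow without a unit. Of the 10 high cows, 7 were in block 1 and 3 in block 2, against 4 and 6 of the 10 low cows (Fisher's exact test, two-sided p = 0.370). The labels name no treatment that only some cows received and no ages, and uterine health or cytology counts were not used here.

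Each cow gave 1 library of 11159501 to 23572549 counts. Total counts averaged 14646435 ± 2421666 in high cows and 17212800 ± 2647409 in low cows (SD, n = 10 each; permutation p = 0.0394, adjusted p = 0.118 over 3 library measures). The number of detected genes (18002 ± 624 in high and 18202 ± 359 in low cows; permutation p = 0.401) and the share of counts in the 10 most abundant genes (6.97 ± 2.32% in high and 5.69 ± 1.56% in low cows; permutation p = 0.174) did not pass the threshold. RNA integrity is not given per cow. No source here ties the identifiers to gene names, so all genes other than S100A8 and S100A9 are given by identifier. Any further calgranulin among them would go unrecognised here. The named marker and pathway lists could not be applied, and the epithelial label of the tissue was not checked against markers.

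The calgranulin level spanned more than an order of magnitude between the classes, which is how they were chosen and is a description only. S100A9 ranged from 14.6 to 125 CPM in high cows with a median of 38.2, and from 0.157 to 2.82 CPM in low cows with a median of 1.46. S100A8 ranged from 7.04 to 75.6 CPM in high cows with a median of 15.3, and from 0 to 0.945 CPM in low cows with a median of 0.319. The 23 cows between them had medians of 5.02 CPM for S100A9 and 2.08 CPM for S100A8.

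The high class was itself uneven. Pregnant replicate 11 (125 CPM of S100A9 and 73.9 CPM of S100A8) and nonpregnant replicate 16 (111 and 75.6 CPM) stood above the other 8 high cows, of which the next had 55.7 and 39.7 CPM. At the edge of the high class, the tenth cow had a score of 3.86 (14.6 CPM of S100A9 and 12.4 CPM of S100A8) and the eleventh 3.64 (17.4 and 7.48 CPM). At the edge of the low class, the last cow inside had a score of 1.246 (1.89 and 0.945 CPM) and the first outside 1.253 (2.54 and 0.602 CPM). The edges are thus positions on a gradient and not gaps.

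In low cows the levels rested on few reads. S100A9 had 3 to 39 counts and S100A8 had 0 to 17 counts per library. Nonpregnant replicate 2 had 0 counts of S100A8, which at its depth allows up to 0.185 CPM (3 counts; counting error only). High cows had 246 to 1669 counts of S100A9 and 98 to 1011 of S100A8. Ranked by either gene alone, 9 of the 10 high cows stayed in the class, while 9 of the 10 low cows stayed by S100A9 alone and 7 by S100A8 alone.

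**Figure D1:**
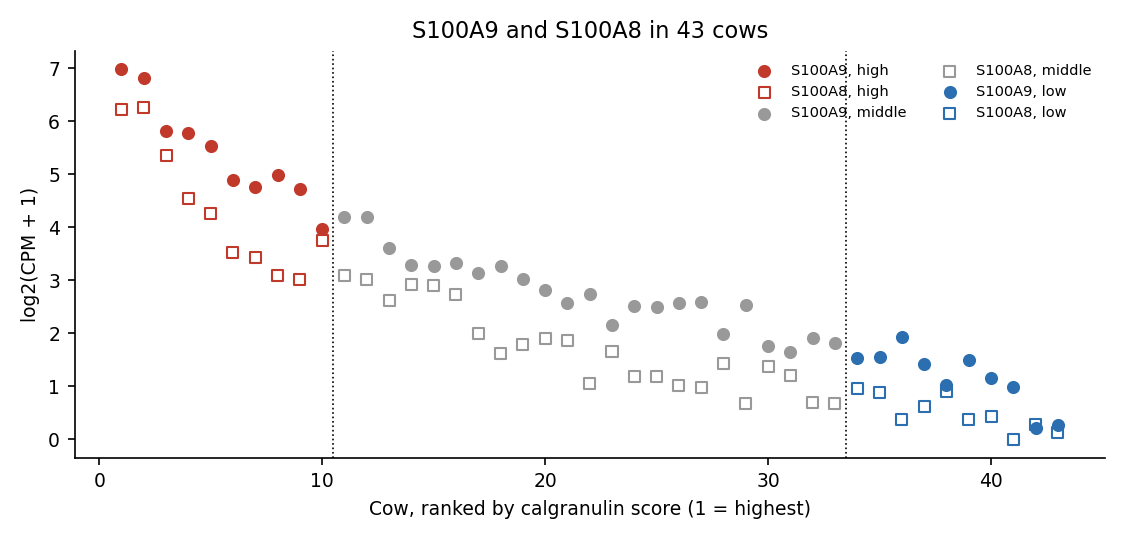
Level of S100A9 (filled circles) and S100A8 (open squares) as log2(CPM + 1) in each of the 43 cows, ordered by calgranulin score, with dotted lines at the edges of the high and low classes. Both genes fall along a continuous gradient, and the 2 cows at the left stand above the other 8 high cows.

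The first question was which other genes went with the calgranulin level. Between the extremes 252 of 14872 genes differed, 1.69% of those tested (10 against 10 cows, adjusted for block; edgeR quasi-likelihood, adjusted p under 0.05). Of these, 158 were higher in high cows (1.06% of the genes tested) and 94 were lower (0.632%). The balance of higher and lower genes was not stable. Higher genes were the majority in most alternatives, such as 492 higher and 410 lower with DESeq2. It was 434 and 343 with limma voom and sample weights, and 100 and 54 for 7 against 7 cows. In the other alternatives that called any gene, lower genes equalled or outnumbered higher ones. These gave 154 higher and 323 lower with all 43 cows in the fit and a middle class, 296 and 319 with the score as a number over 43 cows, and 267 and 359 for 14 against 14 cows. They also gave 206 and 210 with S100A9 alone as the score, 208 and 231 with pregnancy added, 360 and 388 without nonpregnant replicate 1, and 23 and 23 with block left out. The unadjusted p was under 0.05 for 2774 genes. In brushings of mixed cells, more cells of a type and more message per cell cannot be told apart.

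The higher and the lower genes differed in the size of their change. The 158 higher genes had a median log2 fold change of 0.83 (1.77-fold), with quartiles of 0.54 and 1.55. Of them, 64 were at least 2-fold and 29 at least 4-fold higher in high cows. The 94 lower genes had a median of -0.52 (1.44-fold lower), with quartiles of -0.65 and -0.41, and 3 of them were at least 2-fold lower. Over all 14872 genes the median log2 fold change was 0.03, with quartiles of -0.18 and 0.25. In either direction, 457 of them changed at least 2-fold and 64 at least 4-fold. Most of these, 390 and 34, were not called.

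The strongly raised genes were mostly of low abundance, where a gene also needs a larger change to pass the test. The 64 genes at least 2-fold higher had a median of 7.07 CPM over the 20 cows, and the other 94 higher genes had a median of 56.9 CPM. The median was 40.9 CPM for the lower genes and 24.5 CPM for all genes tested. Together the 158 higher genes held 1.15% to 1.77% of a library in high cows with a median of 1.27%, and 0.824% to 1.11% in low cows with a median of 0.950%. The 94 lower genes held a median of 0.367% in high cows and 0.561% in low cows. These shares come from the cows that chose the genes and describe how little of the message was involved.

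**Figure D2:**
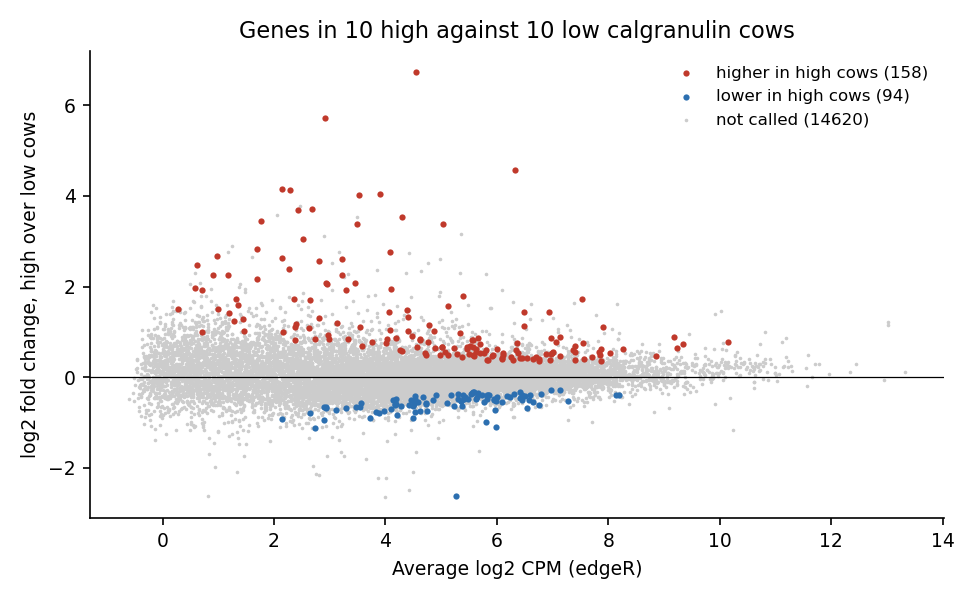
Log2 fold change of high over low calgranulin cows against average log2 CPM for the 14872 genes tested. Red points are the 158 genes higher and blue points the 94 genes lower in high cows (edgeR adjusted p under 0.05); of the 67 called genes that changed at least 2-fold, 64 were higher.

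ENSBTAG00000012638 was the gene of smallest p. It had 41.2 CPM at the lowest, 99.4 CPM at the median and 327 CPM at the highest in high cows, against 0.630, 5.70 and 21.1 CPM in low cows. Every high cow lay above every low cow. The level averaged 146 ± 110 CPM in high cows and 6.77 ± 5.94 CPM in low cows (SD, n = 10 each). The fitted log2 difference was 4.58 ± 0.60 (SE; edgeR adjusted p = 0.00316), which is 23.9-fold.

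Its highest values lay in the cows of highest score. The 4 cows of highest score had 327, 280, 186 and 267 CPM, and the other 6 had 41.2 to 99.7 CPM. The highest low cow, pregnant replicate 18, had 21.1 CPM. Complete separation of this kind was rare, with all 10 high cows above all 10 low cows in 2 genes (0.0134% of those tested) and below them in 6 genes (0.0403%). Both genes above were called, while of the 6 genes below 2 were called and 4 were not. Separation was judged on CPM from library totals, without the TMM scaling used for the calls.

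ENSBTAG00000014898 ranged from 3.0 to 23.1 CPM in high cows with a median of 5.81, and from 1.81 to 5.88 CPM in low cows with a median of 3.17. The classes overlapped in this gene. Its rise rested most on nonpregnant replicate 3 (23.1 CPM), nonpregnant replicate 5 (16.8 CPM) and pregnant replicate 11 (10.8 CPM), which were the 3 high cows of block 2. The log2 fold change was 1.70 ± 0.24 (SE; edgeR adjusted p = 0.00357), with 2.19 ± 0.32 in block 2 alone and 1.28 ± 0.35 in block 1 alone, and the difference between blocks did not pass the threshold (edgeR interaction adjusted p = 0.961).

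Of the genes that were lower, ENSBTAG00000002658 had 6.32 CPM at the lowest, 9.63 CPM at the median and 17.9 CPM at the highest in high cows, against 13.7, 17.5 and 25.3 CPM in low cows. Only nonpregnant replicates 1 and 16 among the high cows (17.9 and 14.1 CPM) reached the range of the low cows. The log2 fold change was -0.76 ± 0.14 (SE; edgeR adjusted p = 0.0151).

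ENSBTAG00000005542 had 48.4 CPM at the lowest, 61.3 CPM at the median and 92.0 CPM at the highest in high cows, against 80.1, 87.4 and 103 CPM in low cows. All high cows except nonpregnant replicate 1 (92.0 CPM) lay below all low cows. The log2 fold change was small, at -0.43 ± 0.08 (SE; edgeR adjusted p = 0.0165), a level 1.34-fold lower in high cows.

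**Figure D3:**
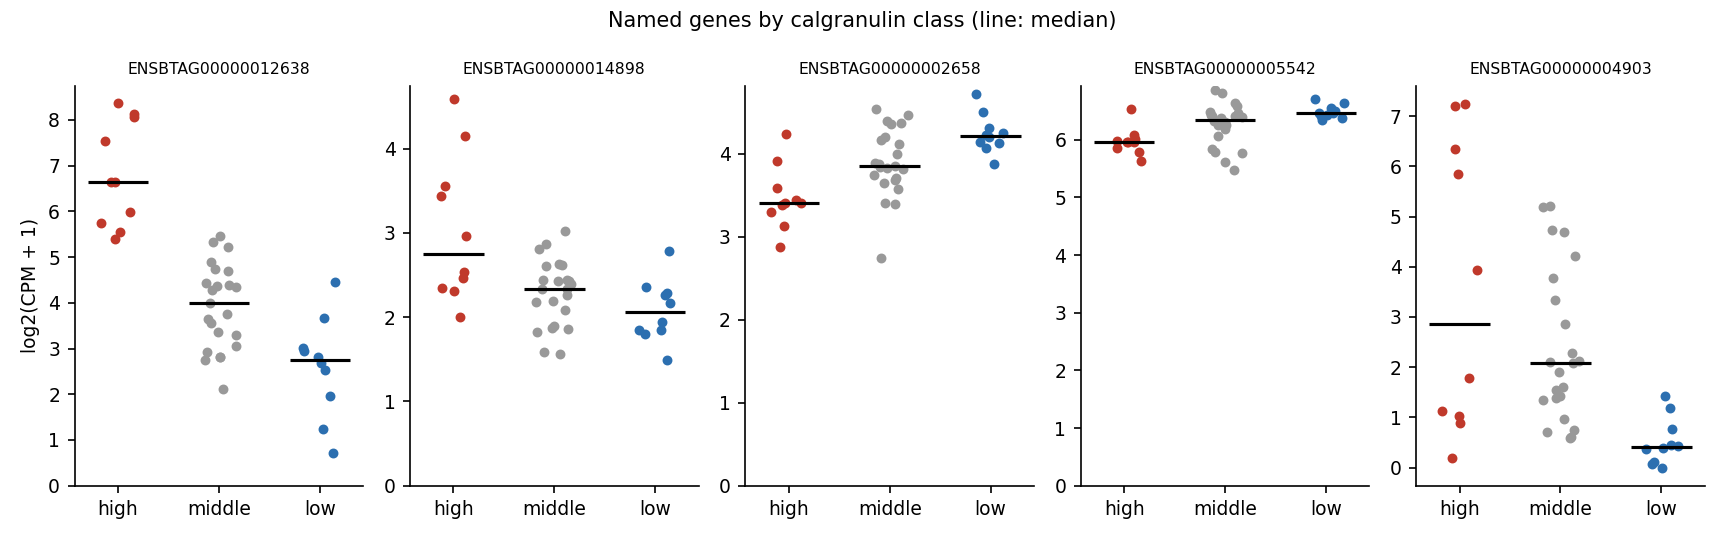
Level of 5 genes as log2(CPM + 1) in the high (n = 10), middle (n = 23) and low (n = 10) calgranulin cows, with 1 point per cow and a line at the median. The first 2 genes from the left were higher and the next 2 lower in high cows, and the fifth, ENSBTAG00000004903, was high in 5 of the 10 high cows.

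Total counts averaged lower in high cows, a difference that did not pass after adjustment. With log2 total counts in the model 9 genes were called, all higher, while all 252 genes had the sign found with block alone and the ratio of their log2 fold changes to those with block alone had a median of 0.949. The count also moved with single cows. It was 748 without nonpregnant replicate 1, and 70, 138, 119, 158, 161 and 158 without nonpregnant replicates 2, 3, 5, 9, 15 and 18. It was 84, 125, 106, 95 and 121 without pregnant replicates 1, 10, 11, 18 and 22. Without both cows of highest score 17 genes were called, and all 252 again had the same sign, with a median ratio of log2 fold changes of 1.01. The cows in these fits had also chosen the 252 genes, so the shared signs and the ratios are no separate check.

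The 23 middle cows took no part in the contrast and gave a separate look at the same genes. Within them, expression was related to the calgranulin score itself, which ran from 1.25 to 3.64. Of the 158 genes higher between the extremes, 131 (82.9%) rose with the score in the middle cows, where 49.9% of all genes tested had a positive slope. Of the 94 lower genes, 87 (92.6%) had a negative slope, against 50.1% of all genes tested. Genes vary together and are not independent replicates, so these shares carry no test.

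The genes of larger change were also looked at apart. Of the 64 genes at least 2-fold higher, 59 (92.2%) had a positive slope in the middle cows, and 11 of them (17.2%) had an unadjusted p under 0.05 in that direction. Of the 94 genes higher by less than 2-fold, 72 (76.6%) had a positive slope and 2 (2.13%) reached that p. Of the 94 lower genes, 5 (5.32%) had a negative slope at that p. Over all genes tested, 1.59% had a positive slope and 0.565% a negative slope at that p. The median slope of those 64 genes was 0.27 per unit of score in the middle cows and 0.44 per unit in the 20 cows that chose them. For the 94 lower genes the median slopes were -0.09 and -0.11.

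After adjustment over all genes, 2 genes passed in the middle cows, 0.0134% of those tested (edgeR quasi-likelihood, 23 cows; 320 genes at an unadjusted p under 0.05). ENSBTAG00000012638 was 1 of them, with a slope of 1.16 ± 0.17 per unit of score (SE; edgeR adjusted p = 0.00229), a 2.23-fold rise per unit. Its slope in the extreme cows was 1.09. Its level in the middle cows ran from 3.35 to 42.9 CPM with a median of 15.03, between those of the classes. Without nonpregnant replicate 17 the slope was 1.09 and the call was lost (edgeR adjusted p = 0.0719), while without any other single middle cow it held.

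The other was ENSBTAG00000004903, named here because it passed in both sets of cows. Its slope in the middle cows was 2.45 ± 0.31 per unit of score (SE; edgeR adjusted p = 0.000533), and it passed without any single middle cow. Between the extremes its log2 fold change was 6.74 ± 1.23 (SE; edgeR adjusted p = 0.0165). The level was 150, 147, 80.0, 56.8 and 14.4 CPM in 5 high cows and 0.140 to 2.44 CPM in the other 5, against 0 to 1.69 CPM in the 10 low cows. The gene was thus high in some and not all of the cows with much calgranulin, and the classes overlapped. In the middle cows it ranged from 0.509 to 36.0 CPM.

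**Figure D4:**
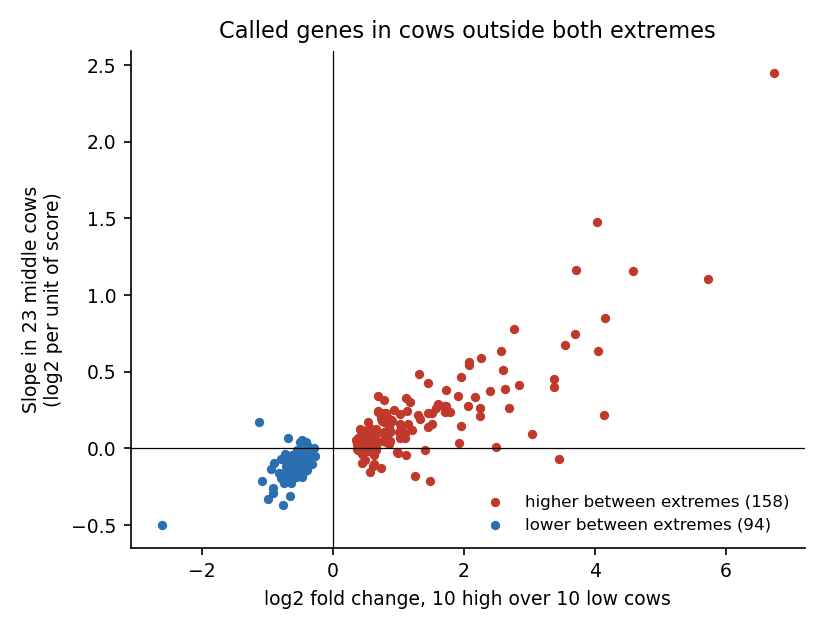
Slope on the calgranulin score in the 23 middle cows (log2 per unit of score) against the log2 fold change between the extremes, for the 252 genes called between the extremes. Of the 158 genes in red, 131 lie above 0, and of the 94 in blue, 87 lie below 0.

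The next question was whether the calgranulin level went with P4, the hormone of the corpus luteum. P4 was 0.33 at the lowest, 0.475 at the median and 1.79 at the highest in high cows, against 0.49, 0.76 and 1.88 in low cows, in the unit of the labels. Both ranges overlapped widely. The geometric means were 0.663 in high and 0.753 in low cows, a difference of -0.18 on the log2 scale with SDs of 0.94 and 0.59, which did not pass (permutation p = 0.596 within blocks, adjusted p = 0.795 over 4 tests against the labels). Over all 43 cows the score and log2 P4 had a Pearson r of 0.00059 (permutation p = 0.997) and a Spearman rho of -0.06 (permutation p = 0.706). Leaving out the 2 cows with P4 farthest from its median gave an r of 0.05.

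The sign of the P4 difference was not the same in both blocks. In block 2 the 3 high cows had P4 of 0.33, 0.46 and 0.47, and the 6 low cows had 0.52, 0.56, 0.80, 0.86, 1.01 and 1.88. Each high cow of block 2 lay below each low cow, and the geometric means were 0.415 and 0.851 (exact permutation p = 0.0476, adjusted p = 0.0952 over the 2 blocks). In block 1 the 7 high cows had 0.34, 0.39, 0.48, 1.15, 1.20, 1.46 and 1.79, and the 4 low cows had 0.49, 0.51, 0.72 and 0.86. The low cows of block 1 lay inside the range of the high cows, and the geometric means were 0.810 in high and 0.627 in low cows (exact permutation p = 0.491).

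Correlations over all cows of each block had the same signs as these differences. The score and log2 P4 had r = -0.42 in block 2 (22 cows; permutation p = 0.0490, adjusted p = 0.0980 over the 2 blocks) and r = 0.31 in block 1 (21 cows; permutation p = 0.165). By ranks the relation was weaker in both blocks. Spearman rho was -0.36 in block 2 (permutation p = 0.0972, adjusted p = 0.194 over the 2 blocks) and 0.22 in block 1 (permutation p = 0.344). The slopes of log2 P4 were -0.18 per unit of score in block 2 and 0.16 in block 1. Their difference of -0.34 had a permutation p of 0.0476 and an adjusted p of 0.0611 over 2 such tests. The difference between blocks in the high minus low contrast, -1.41 on the log2 scale, had a permutation p of 0.0611.

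**Figure D5:**
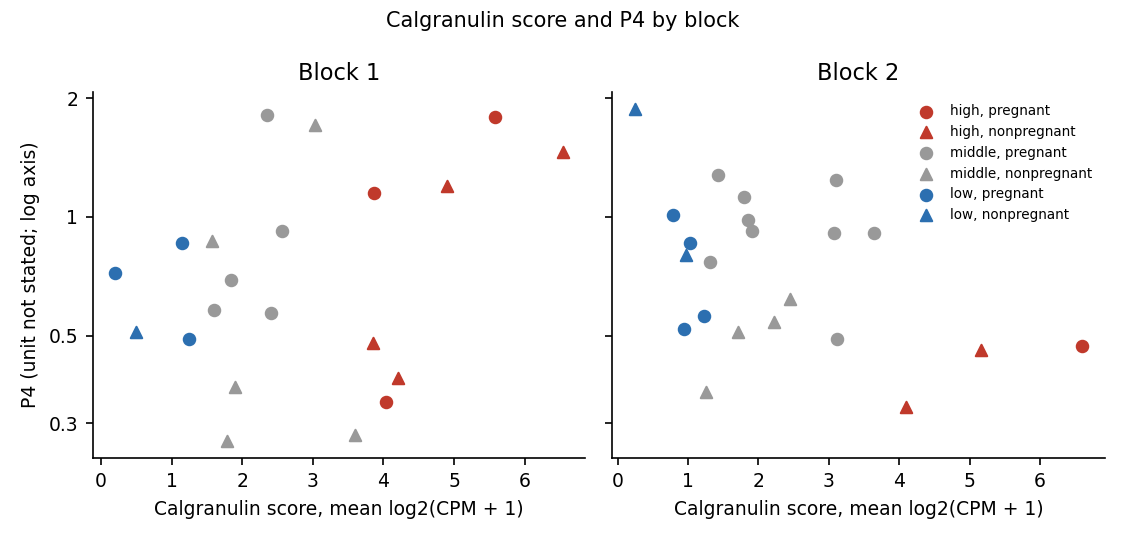
P4 on a log axis (unit not stated) against the calgranulin score for the cows of block 1 (left, n = 21) and block 2 (right, n = 22), coloured by class, with circles for pregnant and triangles for nonpregnant cows. The 3 high cows of block 2 have P4 below 0.5, while the 7 high cows of block 1 spread from 0.34 to 1.79.

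Pregnancy was related to the calgranulin level last. Of the high cows 4 of 10 became pregnant (40.0%, Wilson 95% interval 16.8% to 68.7%), against 7 of 10 low cows (70.0%, 39.7% to 89.2%). The middle cows had 14 pregnancies in 23 (60.9%, 40.8% to 77.8%). The difference of -30.0 percentage points between high and low cows did not pass (Fisher's exact test, two-sided p = 0.370, adjusted p = 0.789 over the 4 tests against the labels), and groups of this size leave wide intervals. It was -33.3 points in block 2 (1 of 3 against 4 of 6) and -32.1 points in block 1 (3 of 7 against 3 of 4). With 7 against 7 cows it was -28.6 points (2 of 7 against 4 of 7, Fisher's exact test, p = 0.592). With 14 against 14 cows it was smaller, at -14.3 points (7 of 14 against 9 of 14, Fisher's exact test, p = 0.704).

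Over all cows the score averaged 2.35 ± 1.52 in 25 pregnant cows and 2.78 ± 1.75 in 18 nonpregnant cows (SD), a difference of -0.43 that did not pass (permutation p = 0.395 within blocks, adjusted p = 0.789). The median of S100A9 was 4.95 CPM in pregnant cows and 6.85 CPM in nonpregnant cows, and that of S100A8 was 1.28 and 2.40 CPM. The single highest score belonged to a pregnant cow and the next to a nonpregnant one, and the lowest score belonged to a pregnant cow and the next lowest to a nonpregnant one. The difference between pregnant and nonpregnant cows was 0.0084 in block 2 and -0.75 in block 1.

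The gene differences were not shown to depend on the labels. No gene of the 14872 passed for a difference between blocks in the high against low contrast (edgeR interaction, 427 at an unadjusted p under 0.05), for a difference between pregnant and nonpregnant cows in the slope on the score (473), or for a change of that slope with P4 (862). Within block 2 alone 2 genes were called, both higher in high cows, and within block 1 alone 0 (1405 and 1435 at an unadjusted p under 0.05). All 252 genes had the same sign in each block, with median ratios of log2 fold changes to those of both blocks together of 1.01 in block 2 and 0.985 in block 1, but these cows had also chosen the genes. With P4 in the model 241 genes were called, of which 212 were among the 252. With pregnancy in the model 439 were called, of which 234 were among the 252.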

How the data were processed

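Per the labels' protocols, poly-A RNA of luminal brushings was sequenced on a NovaSeq, with 1 library per cow. The authors deposited raw read counts for 27570 Ensembl bovine identifiers per library, per the file headers. HTSeq, HISAT2, Trim Galore 0.4.4, FastQC 0.11.7 and the build ARS-UCD1.2 appear in the submitters' processing notes. The counting mode and the gene annotation are not given in the sources used, so overlapping or near-identical genes may be miscounted.

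Cows were scored and classed on library-total CPM. Members and lists were chosen with earlier results of these data known. Genes passing filterByExpr (minimum count 10), without S100A8 and S100A9, were tested with edgeR 4.0.16 (TMM, robust quasi-likelihood F-test, R 4.3.3) and Benjamini-Hochberg adjustment at 0.05. Since the classes come from the same libraries, calls say which genes go with the score. SE is the absolute log2 fold change (or slope) over the square root of F. Named genes were the 2 of smallest p per direction with a mean of at least 2 CPM; the 24 symbol lists could not be run, as 0 identifiers matched a symbol. Permutation tests are two-sided with 100000 resamples, or exact where stated (SciPy 1.17.1). Alternatives included DESeq2 1.42.0 and limma 3.58.1 voom with sample weights. Scripts were tested on simulated data. Library size limits precision for low counts. The limit given for a count of 0 covers counting error only, and Wilson intervals cover the sampling of cows.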

Additional observations from a re-analysis of the deposited data

Results flagged for a closer look

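In the high class, nonpregnant replicate 1 stood apart in ENSBTAG00000005542, with a log2(CPM + 1) of 6.54 (92.0 CPM) where the next high cow had 66.8 CPM. Its gap to that cow was 0.499 of the range of the class, more than the 95% critical value for 10 samples. These values were scaled to library totals only, without the TMM factors used in the gene tests. The TMM factor of nonpregnant replicate 1, 1.10, was the largest of the high class. Whether the flag holds on TMM-scaled values was not tested. The same cow had the lowest score of the high class, and 748 genes were called without it.

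In the low class, the 10 most abundant genes took 9.95% of the counts of pregnant replicate 4, and the gap to the next cow was 0.775 of the range. Among the 16 sets of 10 values examined this way, chance flags about 5%.

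The slope of log2 P4 on the calgranulin score differed between the blocks by -0.339 per unit of score, at -0.18 in block 2 and 0.16 in block 1 (permutation p = 0.0476, adjusted p = 0.0611 over 2 tests). The test was chosen after the values within each block were seen.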

How the results depend on the processing

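The 252 genes became 902 with DESeq2, 777 with limma voom and sample weights, 46 with block left out, 439 with pregnancy added, 9 with log2 total counts added, 477 with all 43 cows in the fit and a middle class, 615 with the score as a number over 43 cows, 154 for 7 against 7 cows, 626 for 14 against 14, 416 with S100A9 alone and 58 with S100A8 alone as the score, 0 in block 1, 2 in block 2, 55 without the cows whose 10 most abundant genes took over 8% (3 high and 1 low), and 17 without the 2 cows of highest score, a setting chosen after seeing the data. Fewer cows entered the fits of single blocks and reduced sets; otherwise the cause was not tested. Leaving out 1 cow gave 70 to 748. All 252 genes kept their sign in each of these fits, and 246 were still tested, all of the same sign, with the filter of CPM above 1. These fits share cows with the fit that chose the genes, so the kept signs are no separate check. In the middle cows, DESeq2 called 3 genes and limma voom with sample weights 2, and leaving out 1 cow, also chosen later, gave 1 to 3. P4 in high minus low cows was 0.37 in block 1 and -1.04 in block 2 on the log2 scale, its r with the score was -0.42 in block 2, and the score of pregnant minus nonpregnant cows was 0.0084 in block 2. ENSBTAG00000005542 missed the threshold in 6 of 42 alternatives, ENSBTAG00000002658 and ENSBTAG00000014898 in 3 each and ENSBTAG00000012638 in 2, all with the same direction. No paired analysis was possible because no cow appears in 2 groups and a replicate number is only a name.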

Other observations

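Over all 43 cows the calgranulin score was correlated by Pearson r with smaller axes of variation, and no correlation with the main one was found. Principal components were computed from log2 CPM of 13950 genes in all 43 cows, without S100A8 and S100A9, and were related to the score after the other results were seen. The first component held 25.6% of the variance and had r = 0.07 with the score (permutation p = 0.667). The second held 10.96% and had r = 0.47 (permutation p = 0.00146, adjusted p = 0.00730 over 5 components; Spearman rho = 0.44, permutation p = 0.00309, adjusted p = 0.0154). Its r was 0.44 without the 2 cows farthest from the median score, 0.58 in block 2 and 0.47 in block 1, but 0.13 within the 23 middle cows. The fifth held 4.53% and had r = 0.43 (permutation p = 0.00359, adjusted p = 0.00897; Spearman rho = 0.35, permutation p = 0.0200, adjusted p = 0.05002), with 0.38 without those 2 cows, 0.46 in block 2, 0.37 in block 1 and 0.17 within the middle cows.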
